A study of Mus musculus with 20 samples.

Results

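The cytosolic ribosome is built from ribosomal RNA and a fixed set of small proteins, and the genes for these proteins are among the most strongly expressed in most cells. Members were taken by name: every gene whose symbol is Rpl or Rps followed by a number, with the optional endings a, l, x, al or l1, together with Rplp0, Rplp1, Rplp2 and Rpsa. This rule found 84 of the 17787 genes in the deposited table, 52 of the large ribosomal subunit and 32 of the small one. The rule itself used no measured value, but it was chosen with earlier results of these data known. Pseudogenes, ribosomal S6 kinases and mitochondrial ribosomal proteins lie outside it, and so do Rps3a1 and Fau, which also encode ribosomal proteins.

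RNA was sequenced from 20 libraries of mouse bone marrow-derived macrophages, cells grown from the marrow of male wild-type C57BL/6J mice for 7 days in medium conditioned by L929 cells. All cells were transfected for 48 h with 50 nM siRNA, either a control siRNA or one against Brg1, and treated during the last 6 h. The treatments were vehicle (ethanol and buffered saline), LPS (100 ng/ml with ethanol) or Dex+LPS (1 µM dexamethasone with 100 ng/ml LPS). Each siRNA had 3 libraries in vehicle, 3 in LPS and 4 in Dex+LPS. Brg1 is the protein of the gene Smarca4, the ATPase that drives SWI/SNF chromatin remodelling complexes. LPS is a bacterial cell wall component that activates macrophages, and dexamethasone is a synthetic glucocorticoid. The labels do not say whether replicates were separate animals or cultures, so the p-values reflect the variation among these libraries, which may be technical.

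Ribosomal proteins are assembled with ribosomal RNA in the nucleolus, mostly in equal numbers per particle. Most of their mRNAs start with a C followed by a run of pyrimidines, the 5′ terminal oligopyrimidine or TOP motif, through which the kinase mTOR and the RNA-binding protein LARP1 control their translation and stability. Counts of mRNA do not show translation.

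Of the 84 members, 62 had a promoter window in the RefSeq annotation of GRCm38.p6, from 250 bases before to 50 bases after a start site. A run of at least 8 pyrimidines (C or T) that begins with C was sought on the sense strand within 50 bases of the start. It was found in 53 of 62 members (85.5%) and in 8645 of 27025 genes overall (32.0%). With the run limited to 5 bases before to 50 bases after the start, the shares were 67.7% and 16.3%. The following sequences are 30 bases around a run, 5′ to 3′ on the gene's strand, with that run in capitals. Rps19, Rpl36a, Rpl38 and Rpl4 are shown because they were lower with Brg1 siRNA in every treatment, Rpl36al, Rpl22 and Rpl22l1 for the comparison of paralogues, and Rpl13a, Rps6 and Rps26 because their values varied in ways described later.
Rps19, chr7:24884624-24884653, plus strand: cccgtcgttCCCTTTCCCCTggctggcagc
Rpl36a, chrX:134585673-134585702, plus strand: ggctctagCCTCTCTCTTTCCgagctgcta
Rpl36al, chr12:69184019-69184048, minus strand: ctctgttcgtCCCTTTCCTgttcggcgcgt
Rpl38, chr11:114668569-114668598, plus strand: gaagcctcgttCTTTCCCCgttctcttcgg
Rpl4, chr9:64173362-64173391, plus strand: tgacaagtCTTTCCTTTTCCTgtgggagca
Rpl22, chr4:152325679-152325708, plus strand: ccgtctgaCTCCTCCCTTTCCCgacagccg
Rpl22l1, chr3:28805500-28805529, plus strand: gcaagcccgttCTCTTCCCacggctgcagc
Rpl13a, chr7:45128722-45128751, minus strand: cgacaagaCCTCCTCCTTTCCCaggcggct
Rps6, chr4:86857349-86857378, minus strand: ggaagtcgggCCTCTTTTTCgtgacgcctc
Rps26, chr10:128626484-128626513, minus strand: agccgccggatCCTCTTTCgagtcttggct

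The run shown for Rpl38 began at the annotated start itself and that for Rpl36a 27 bases after its start. The run shown for Rps19 began 43 bases before its start, so annotated starts and the runs shown coincide only roughly. Rps19 also had a run that began between 5 bases before and 50 bases after a start. Runs cut by the edge of the searched stretch are not printed. Rpl36a and Rpl36al, paralogues of each other, both carried a run. Among matched members tested for the knockdown, 4 of 5 that were lower in all 3 knockdown comparisons had a run, as did 24 of 28 that were lower in 1 or 2 and 23 of 27 that were lower in none. Of other motifs, each searched on both strands of the whole window, CGGAAG (the core bound by ETS factors) was present in 67.7% of members and 18.8% of all genes. TGACGTCA (the CRE of CREB) was present in 8.06% and 2.03%, and ATGGCGG in 17.7% and 4.69%. CACGTG (the E-box that MYC binds) was found in 9.68% of members and 8.09% of all genes, and TATAAA in 11.3% and 15.7%. These matches describe the letters of the windows only.

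Whole-library facts that touch the results are few. Libraries held 13694895 to 18707709 reads, and the authors' scaling gave normalized totals that were lowest in vehicle and highest in LPS. The target gene Smarca4 stood at 1476, 1538 and 1626 normalized counts in the control vehicle libraries and at 365.2, 358.1 and 340.2 with Brg1 siRNA. It stood at 2990, 2899 and 2751 against 620.9, 559.5 and 600.1 in LPS, and at 2032, 1745, 1905 and 2181 against 459.8, 413.6, 442.4 and 518.0 in Dex+LPS. The groups did not overlap in any treatment, and the target changed by -77.0%, -79.4% and -76.6% in limma (adjusted p 1.5e-11, 3.76e-12 and 1.31e-12). Macrophage markers (8 of 8 tested) summed to 281858 normalized counts or more in every library. Of the T and NK cell list 1 of 6 genes and of the fibroblast list 2 of 5 had a row, and these summed to at most 2.27 and 11.4. No erythroid marker of 5 had a row, and 6 neutrophil markers summed to 46.0 to 533.1. Of the 20 libraries, 4 carry label numbers in a clearly higher range, 1 in each LPS and Dex+LPS group (replicate 3 of control LPS, replicate 2 of Brg1 LPS and replicate 4 of both Dex+LPS groups). In 2 other libraries, control vehicle replicate 1 and control Dex+LPS replicate 2, short transcripts stood high: other genes with transcripts of at most 700 bases had a median deviation from their group mean of 0.07 and 0.26 log2 units there.

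Member rows were not equally reliable. Of the 84 members, 81 had 10 or more normalized counts in 3 or more libraries and were tested, 50 of the large and 31 of the small subunit. The 3 that did not were Rpl3l, the muscle form of Rpl3, Rpl6l and Rps12. Rps12, a core protein of the small subunit, had a mean of 0.747, and the pseudogene-named row Rps12-ps3, which shares 83.75% of its 31-base words, had 2024. Such sharing was common: 59 members had at least 1 other row in the table that shared 20% or more of their words, and in 12 members less than 50% of the summed count lay in the member's own row. Rps27 held 0 to 3.72% of a count otherwise listed under Rps27rt (98.73% of words shared), Rpl12 held 2.43% to 6.98% and Rpl5 3.12% to 5.17%. Expressed per kilobase of transcript, the highest mean levels of members' own rows over all libraries were those of Rps27a (10222 normalized counts per kb), which encodes a fusion of ubiquitin and a small subunit protein, Rpl19 (10123) and Rpl23 (10005). With related rows summed, Rpl10 stood first at 14351 per kb. The lowest among tested members was Rpl39l at 11.8.

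Silencing Brg1 lowered ribosomal protein mRNAs in each treatment, by modest amounts. The members together took 2.63%, 2.27% and 2.39% of counts in the control vehicle libraries and 1.92%, 2.02% and 2.01% with Brg1 siRNA. In LPS they took 1.93%, 1.84% and 2.06% against 1.43%, 1.58% and 1.41%. In Dex+LPS they took 1.87%, 2.45%, 1.89% and 2.17% against 1.47%, 1.51%, 1.57% and 1.75%. Every control library lay above every Brg1 siRNA library of its treatment. In bulk RNA, fewer cells of one type and less RNA per cell cannot be told apart.

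**Figure D1:**
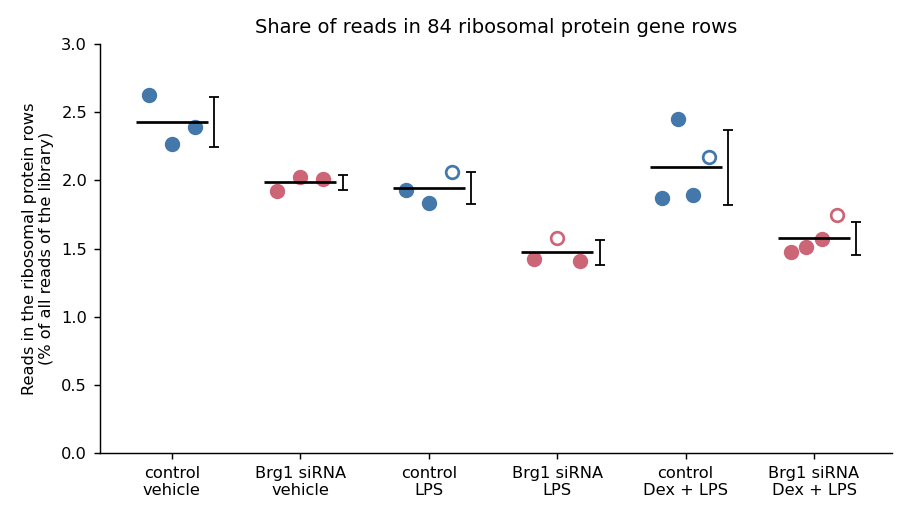
Share of all normalized counts held by the ribosomal protein genes (percent, vertical axis) in each library, by siRNA and treatment, with group means and SD; open circles mark the 4 libraries with the higher label numbers. Control libraries range from 1.84% to 2.63% and Brg1 siRNA libraries from 1.41% to 2.02%, with no overlap within a treatment.

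Gene by gene, the test was limma-trend on log2(normalized count + 1), and a member was called at an adjusted p under 0.05 over all 12061 tested genes. In vehicle 21 of 81 members fell (25.9%, where 10.8% of all tested genes were called lower) and 0 rose (9.39% of all genes were called higher). In LPS 21 fell (25.9%, against 15.8% of all genes) and 0 rose (17.3%). In Dex+LPS 41 fell (50.6%, against 15.3%) and 0 rose (19.0%). No member was higher at an unadjusted p under 0.05 in any of these 3 comparisons, and edgeR and DESeq2 on the recovered reads also called 0 members higher. The median log2 fold change of the members was -0.23, -0.29 and -0.32, while that of all tested genes was 0.005, 0.01 and 0.01. The authors' deposited table, with its own adjusted p-values, gave 25, 25 and 41 members lower and 0 higher.

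The direction reached well beyond the called members. The estimate was below 0 for 68, 77 and 80 of the 81 members in vehicle, LPS and Dex+LPS. For 65 members (80.2%) it was below 0 in all 3 treatments, against 26.8% of all tested genes, and for 0 members it was above 0 in all 3. Groups did not overlap, with Brg1 siRNA lower, for 47 members in vehicle (23.2% of all genes), 42 in LPS (22.0%) and 29 in Dex+LPS (13.1%). They did not overlap with Brg1 siRNA higher for 2 members in vehicle (22.9% of all genes), 0 in LPS (24.1%) and 0 in Dex+LPS (16.1%). Both subunits moved alike: 12, 13 and 27 of 50 large subunit members and 9, 8 and 14 of 31 small subunit members were called lower, with medians of -0.21, -0.25 and -0.30 and of -0.23, -0.33 and -0.32.

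**Figure D2:**
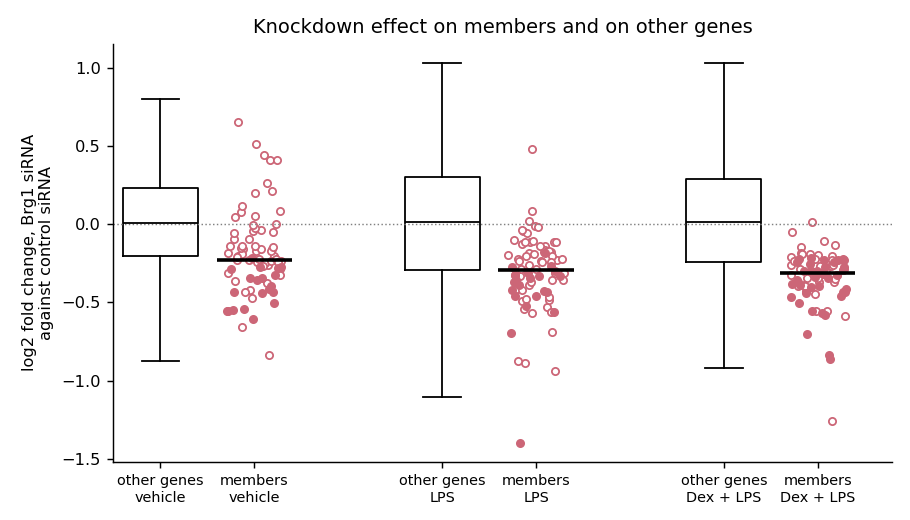
Distribution of log2 fold changes (Brg1 siRNA minus control siRNA, vertical axis) of the ribosomal protein genes in vehicle, LPS and Dex+LPS, with called members filled and their median as a thick line, beside boxes of the quartiles of the other tested genes with whiskers from the 5th to the 95th percentile. Rps27 is left out of the points and of the thick line. Over all 81 tested members, the medians of -0.23, -0.29 and -0.32 lie below the median of the other genes in each treatment.

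The 10 members called lower in all 3 treatments (12.3%, against 4.59% of all tested genes) included Rps19, Rpl36a, Rpl23a, Rplp0, Rpl3, Rpl32, Rps27a, Rpl38 and Rpl4. Rpl32 and Rpl4 are named for that reason alone, after their values were seen. A further 20 members were called lower in 2 treatments, 13 in 1 and 38 in none. The 3 knockdown comparisons share no library, but they share 1 fit and thus each gene's spread. A gene with a small spread is therefore more easily called in all 3. Across the 80 tested members other than Rps27, the log2 fold changes in vehicle and LPS had a Pearson r of -0.05. For vehicle and Dex+LPS it was 0.33, and for LPS and Dex+LPS 0.54.

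Rps19, a small subunit protein needed for maturation of the 18S ribosomal RNA and the gene most often mutated in Diamond-Blackfan anaemia, had the largest mean change of the 10. It stood at 4731, 3875 and 3852 normalized counts in control vehicle and at 2649, 2875 and 2636 with Brg1 siRNA. In LPS it stood at 5000, 4786 and 5339 against 3548, 4001 and 3485, and in Dex+LPS at 3882, 5372, 4157 and 5062 against 2954, 3031, 2874 and 3518. The lowest control library exceeded the highest Brg1 siRNA library in each treatment. The log2 fold changes were -0.60 ± 0.11 (SE, limma adjusted p = 0.000743), -0.46 ± 0.11 (0.00445) and -0.57 ± 0.10 (0.000181), and the call held in every alternative run, among them the removal of each library in turn.

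Rpl36a, a large subunit protein at the exit site of the ribosome, changed by a like amount. Its counts were 1579, 1381 and 1409 in control vehicle and 987.0, 1002 and 995.9 with Brg1 siRNA. They were 1460, 1420 and 1604 against 1077, 1164 and 1101 in LPS, and 1266, 1739, 1351 and 1263 against 901.4, 908.6, 979.9 and 933.5 in Dex+LPS. It changed by -31.5%, -25.4% and -33.1% (limma adjusted p 0.000395, 0.00219 and 2.46e-05), and no alternative removed a call.

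Rplp0 encodes the protein on which the P1 and P2 proteins assemble into the stalk that recruits translation factors. Its counts in control vehicle were 8862, 7947 and 8608, against 5996, 6468 and 6607 with Brg1 siRNA. They were 11177, 11193 and 11049 against 8568, 8514 and 8491 in LPS, where the 6 libraries formed 2 tight and separate sets. With Dex+LPS the control libraries held 8668, 11754, 8325 and 10185 against 6391, 6745, 7562 and 7880. The log2 fold changes were -0.41, -0.39 and -0.44 (limma adjusted p 0.0064, 0.00661 and 0.000765), and the calls held in every alternative run. The other stalk genes were too variable for a call: Rplp1 had estimates of -0.06, -0.54 and -0.37 with SEs of 0.32 to 0.37, and Rplp2 of -0.16, -0.48 and -0.39 with SEs of 0.23 to 0.26.

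Rpl3, which lies next to the catalytic centre, stood at 8305, 7195 and 7849 in control vehicle and at 6153, 6685 and 6487 with Brg1 siRNA. In LPS it stood at 7221, 6771 and 7224 against 5305, 5358 and 5132, and in Dex+LPS at 5897, 7631, 6343 and 7060 against 4707, 4733, 4969 and 5111. No Brg1 siRNA library reached the lowest control library of its treatment. The log2 fold changes were -0.27 ± 0.08 (SE), -0.43 ± 0.08 and -0.46 ± 0.07, with limma adjusted p-values of 0.0172, 0.000342 and 3.33e-05. The vehicle call was lost without control replicate 1 or 3 or Brg1 siRNA replicate 1 (adjusted p up to 0.0905).

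Of the others, Rpl23a, a docking site for factors at the tunnel exit, changed by -25.9%, -22.5% and -27.6%, with each call kept in all alternatives. Rps27a changed by -26.2%, -16.8% and -21.8%, but its LPS call was lost without any 1 of control LPS replicates 1, 2 and 3 and Brg1 LPS replicates 1 and 2 (adjusted p up to 0.117). Rpl32 changed by -22.0% in vehicle, by -20.3% in LPS and by -24.8% in Dex+LPS. It lost the vehicle call without control replicate 1, and the LPS call without the 4 libraries of higher number. Rpl38 and Rpl4 changed by -17.8% and -13.9% in vehicle, where 5 and 4 of the 6 removals of 1 library ended the call, control replicate 1 and each Brg1 siRNA replicate among them. In LPS the call for Rpl38 (-20.2%) held in all alternatives, and that for Rpl4 (-12.2%) was lost without any 1 of the 6 libraries.

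**Figure D3:**
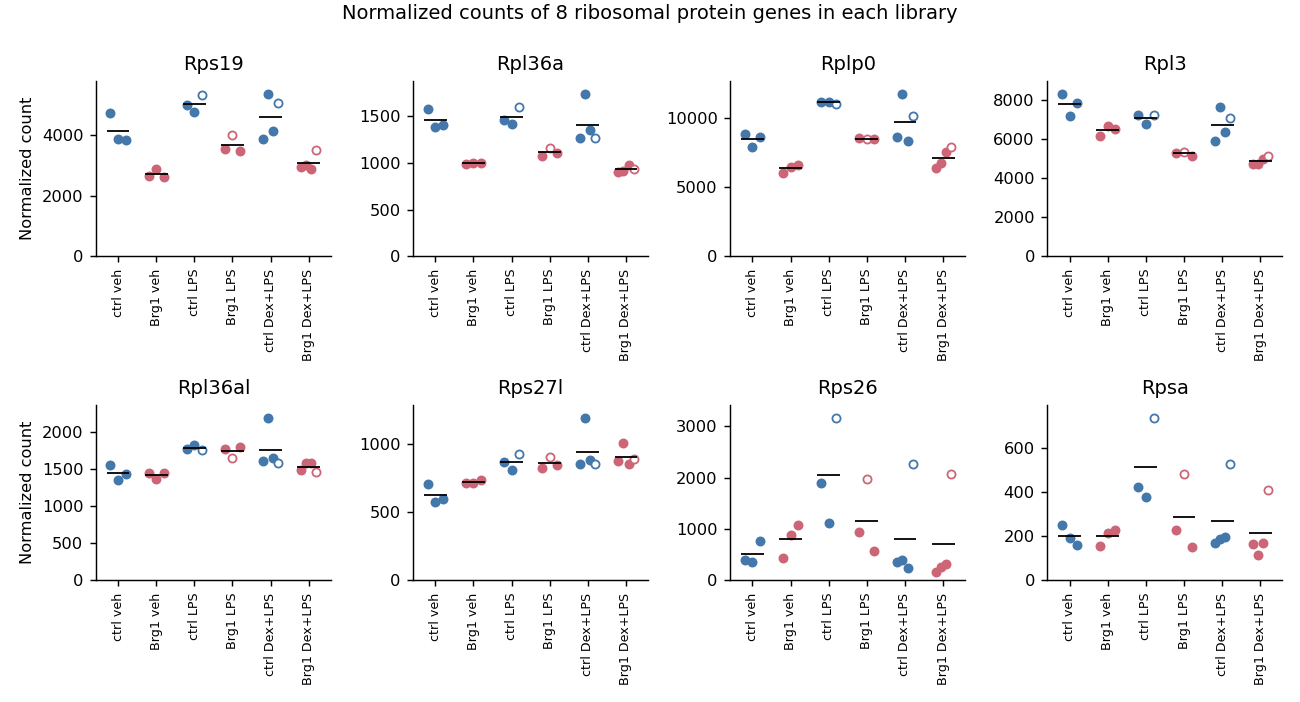
Normalized counts (vertical axes) of 8 ribosomal protein genes in each library, by siRNA and treatment; open circles mark the 4 libraries with the higher label numbers. Rps19, Rpl36a, Rplp0 and Rpl3 are lower with Brg1 siRNA in each treatment without overlap, Rpl36al and Rps27l are not, and Rps26 and Rpsa are highest in libraries of higher number within the LPS and Dex+LPS groups.

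Not every member was called lower. Rpl36al, a paralogue of Rpl36a with a nearly identical protein, stood at 1556, 1352 and 1433 in control vehicle and at 1435, 1357 and 1437 with Brg1 siRNA. In LPS it stood at 1770, 1818 and 1746 against 1762, 1640 and 1794. In Dex+LPS it stood at 1608, 2188, 1639 and 1580 against 1478, 1573, 1583 and 1452. The groups overlapped in every treatment, and the estimates were -0.04, -0.04 and -0.19 (SE 0.08 to 0.09, limma adjusted p 0.851, 0.796 and 0.0781). Rps27l, a p53 target and paralogue of Rps27, had estimates of 0.21, -0.02 and -0.05, none called. In vehicle its 3 Brg1 siRNA libraries (715.2, 717.8 and 733.3) were above all control libraries (704.7, 573.4 and 596.8), and 2 of 18 alternatives called it higher: the one with the length trend removed and the one without the 2 libraries in which short transcripts stood high.

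The difference between paralogues was itself tested on the log2 ratio of the pair within each library, by exact permutation of the siRNA labels within treatment (two-sided, 28000 rearrangements, 5 pairs, a test added after the values were seen). The ratio of Rpl36a to Rpl36al was lower with Brg1 siRNA in each treatment, with differences of -0.51, -0.38 and -0.39 log2 units in vehicle, LPS and Dex+LPS and a mean of -0.43 (p = 7.14e-05, the smallest these permutations can give, and 0.000357 after Benjamini-Hochberg adjustment). The control ratios lay between -0.02 and 0.03, -0.36 and -0.12, and -0.35 and -0.28, against -0.54 to -0.44, -0.71 to -0.49 and -0.79 to -0.64 with Brg1 siRNA. No range overlapped with its partner, and the result held without each library in turn. Of the summed count of each gene and its sequence relatives, at least 99.05% lay in the own row of Rpl36a and at least 99.88% in that of Rpl36al.

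Rpl22, an RNA-binding protein with roles in lymphocyte development, fell in vehicle (-0.39) and Dex+LPS (-0.30) and had an estimate of -0.20 in LPS. Rpl22l1, its paralogue, had -0.16, -0.04 and -0.22, with a Dex+LPS call (limma adjusted p = 0.0408) that was lost in 9 of 20 alternatives, among them those without control replicate 2 or 3 or Brg1 siRNA replicate 3 or 4 (adjusted p up to 0.14). The mean difference of their ratio was -0.16 (exact permutation p = 0.00371, adjusted 0.00929). Rpl7 fell in vehicle and Dex+LPS (-0.28 and -0.24) and Rpl7l1 in Dex+LPS (-0.23), and their ratio differed by -0.10 (exact permutation adjusted p = 0.0255, and 0.0639 without the 2 libraries in which short transcripts stood high). Rpl39, which lines the exit tunnel, fell in vehicle (-0.56) and Dex+LPS (-0.40). Its paralogue Rpl39l was near the detection floor with 4.14 to 17.4 normalized counts. Their ratio differed by -1.07 in vehicle, -0.74 in LPS and 0.15 in Dex+LPS, a mean of -0.55 with an adjusted p of 0.0317 (exact permutation) that rose to 0.0774 without Brg1 Dex+LPS replicate 2 and also passed 0.05 without any 1 of control vehicle replicates 1 and 2, control LPS replicate 1, Brg1 vehicle replicate 2 and Brg1 LPS replicate 2. Rps4x, an X-linked small subunit gene, fell in vehicle (-0.35, lost without control replicate 1) and Dex+LPS (-0.27). Its ratio to Rps4l, at 17.2 to 60.97 normalized counts, differed by -0.27 (exact permutation adjusted p = 0.173).

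**Figure D4:**
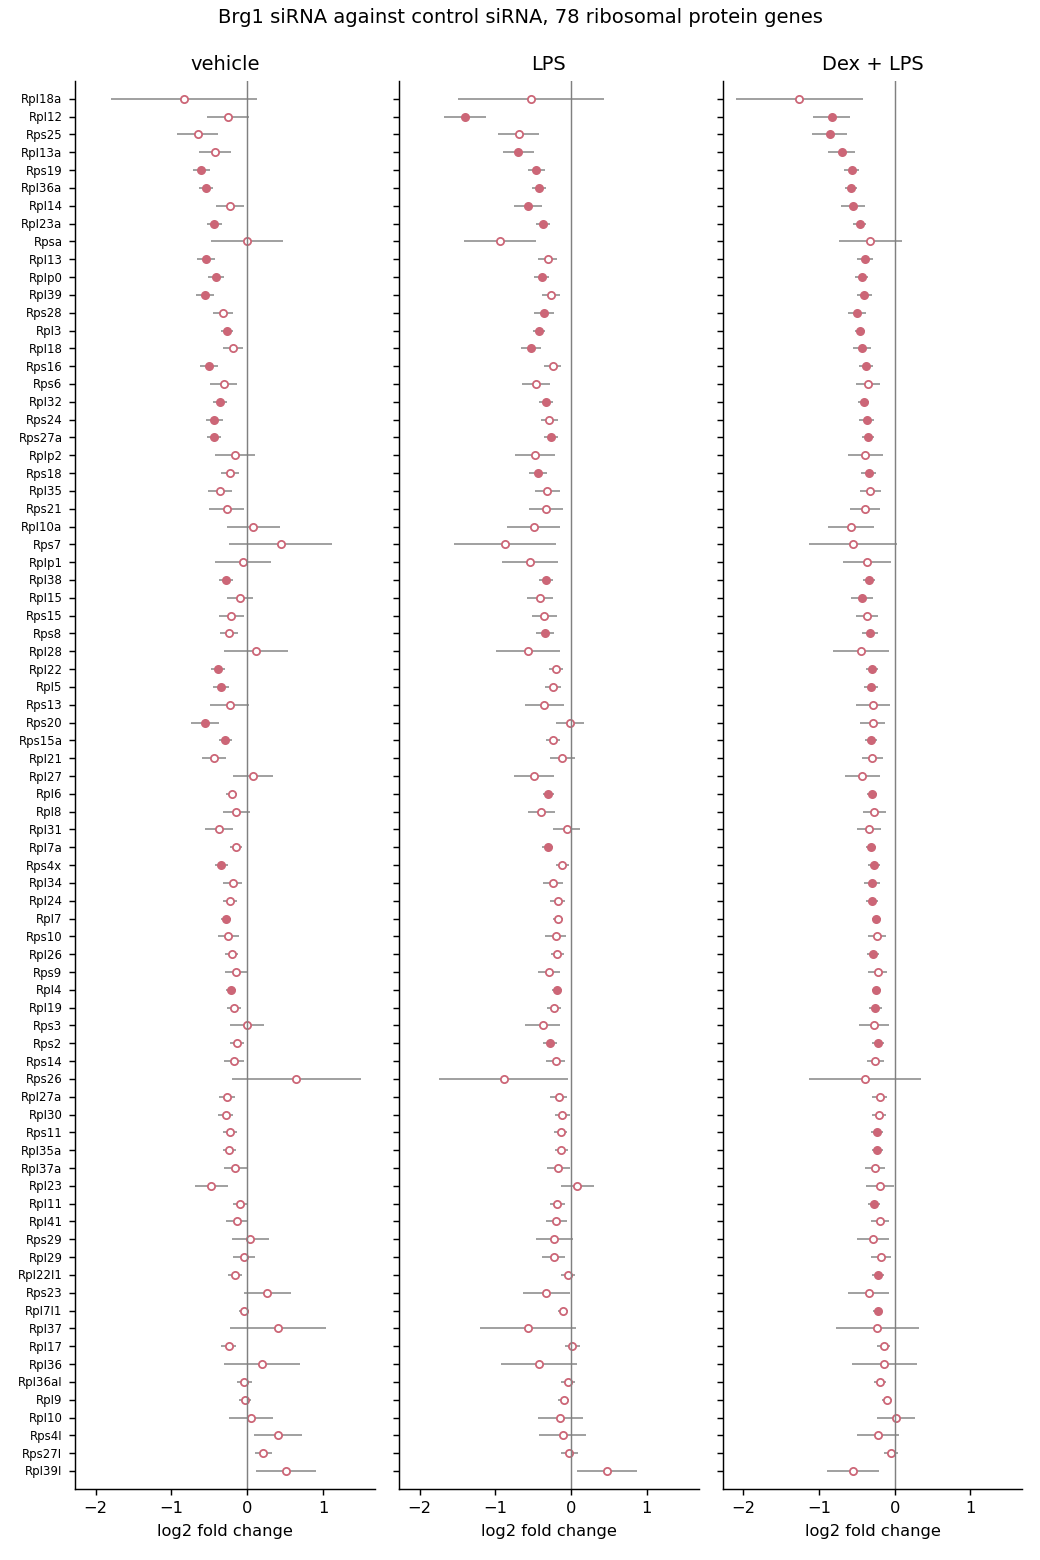
Log2 fold change with Brg1 siRNA (horizontal axis, ± SE) of tested ribosomal protein genes in vehicle, LPS and Dex+LPS (Rps27 and a few others are left out), ordered by the mean of the 3; filled points passed the test. All filled points lie below 0, and Rps19 and Rpl36a are the uppermost of the genes filled in all 3 panels.

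Several of the largest changes were in members with uncertain rows. Rps27 was listed at 41.0, 48.1 and 42.8 in control vehicle and at 0 in all 3 Brg1 siRNA vehicle libraries and all 6 LPS libraries. In Dex+LPS it stood at 49.8, 25.6, 58.0 and 42.1 against 0, 0, 120.7 and 0. The sum of Rps27 with its relatives was not called in any knockdown comparison (-0.17, 0.11 and -0.09). Rpl12, part of the base of the stalk, stood at 231.1, 292.7 and 266.3 in control LPS and at 99.7, 109.7 and 88.7 with Brg1 siRNA, and it changed by -62.0% (limma adjusted p = 0.000808). Its fall in Dex+LPS (-0.83) was lost without Brg1 siRNA replicate 3. Summed with its relatives, Rpl12 had changes of -0.48, -0.56 and -0.51 in vehicle, LPS and Dex+LPS, all 3 called. Rps6, the substrate of the S6 kinases, was not called in its own row but was called in the sum with its relatives (-0.38, -0.27 and -0.35) in all 3 treatments. Rpl5, which with Rpl11 binds MDM2, was called in its own row in vehicle and Dex+LPS (-0.34, lost without control replicate 1 or 2 or Brg1 siRNA replicate 2 or 3, and -0.31, lost without control replicate 1) but not in the sum (-0.28, -0.08 and -0.22). With relatives summed for all members, 25, 27 and 42 of 82 fell and 0 rose.

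Among members named by size of change, Rps20 fell in vehicle (-0.55), a call lost without any 1 of 5 of its 6 libraries, and Rps25, at 67.8 to 308.9 counts, fell by 44.9% in Dex+LPS, a call kept in all alternatives, with log2 fold changes of -1.0 to -0.65 without 1 library. Rpl13a, known from a translational silencing complex of activated myeloid cells, fell in LPS (-0.69) and Dex+LPS (-0.70) and had an estimate of -0.42 in vehicle. Its counts were 1277, 1057 and 1512 in control LPS and 709.4, 910.9 and 746.8 with Brg1 siRNA. The LPS call was lost without control replicate 3 or Brg1 siRNA replicate 1 or 3. Rpl14 and Rpl18 fell in LPS, with log2 fold changes of -0.56 and -0.52. That of Rpl18 held in all alternatives, while that of Rpl14 was lost without control LPS replicate 1 or 3 or Brg1 LPS replicate 1 or 3. Rpl10, Rpl10a and Rpl41 were not called in any treatment, with SEs of up to 0.30, 0.35 and 0.14. Rpl11 was called in Dex+LPS (-0.27), a call lost without Brg1 Dex+LPS replicate 1.

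Members also differed in how closely their replicates lay together. The median replicate SD was 0.17 log2 units for members and 0.19 for all tested genes. Of the 63 members with an SD under 0.35, 31.7%, 31.7% and 60.3% were called lower in vehicle, LPS and Dex+LPS, and 61, 61 and 63 had estimates below 0. Of the 18 with a larger SD, 1, 1 and 3 were called, and 7, 16 and 17 had estimates below 0. Their medians were 0.08 in vehicle, -0.51 in LPS and -0.41 in Dex+LPS. The test divides each change by a spread drawn from these same replicates. Fewer calls at a larger SD were therefore built in. Of those 18, 13 stood over 0.3 log2 units above their group mean in the libraries of higher number, as did 19 of the 81 tested members, against 8.28% of all tested genes. For 14 of 57 member families, the share of the summed count in the member's own row did not overlap between the libraries of lower and higher number. Rps7 held 7.25% to 35.8% of its family count in the former and 40.9% to 44.5% in the latter, Rpl10 11.9% to 17.4% against 20.9% to 28.7%, and Rpl37 88.0% to 97.0% against 55.1% to 61.4%. All vehicle libraries had lower numbers, so treatment is mixed into this contrast. The like share over families of other genes was not computed.

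**Figure D5:**
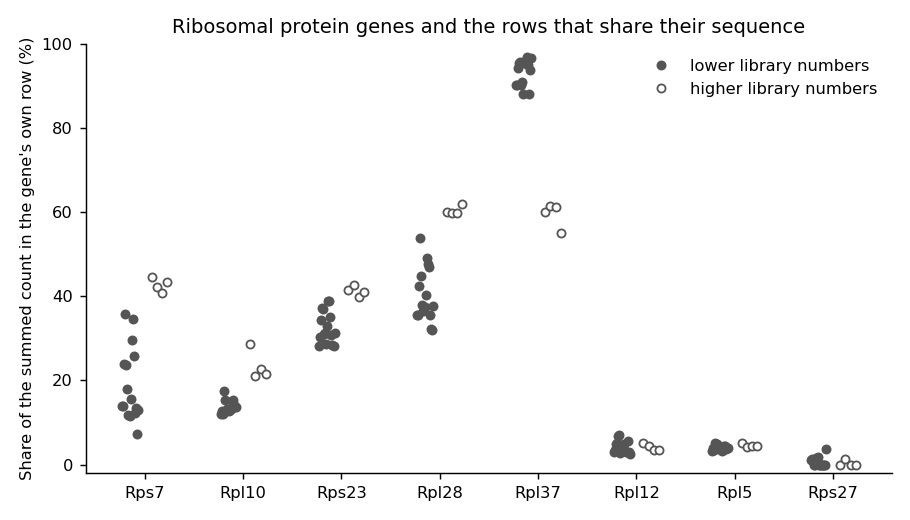
Percent of the summed count of a ribosomal protein gene and its sequence relatives that lies in the gene's own row (axis in percent), by library, for 8 genes. Rps7 and Rpl10 have larger shares, and Rpl37 smaller ones, in the 4 libraries of higher number (open circles).

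The knockdown difference was also measured without the libraries that stood apart, and within them. In the libraries of higher number alone, 1 per group, the member medians were -0.28 in LPS (78 of 81 below 0) and -0.19 in Dex+LPS (75 of 81). Without control vehicle replicate 1 and control Dex+LPS replicate 2, 22, 36 and 34 members fell in vehicle, LPS and Dex+LPS. Without control vehicle replicate 1 the vehicle count was 11, and without control LPS replicate 3 or Brg1 LPS replicate 1 the LPS count was 13. Among other short transcripts, 340 tested genes of at most 700 bases had medians of -0.02, 0.02 and -0.08, and members of at most 700 bases (24) and longer ones (57) had medians of -0.23 and -0.23, -0.29 and -0.29, and -0.32 and -0.32.

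Cell markers moved with the siRNA. The 8 markers of dividing cells had medians of -0.94, -0.98 and -1.16, with 7, 6 and 7 called lower, and their summed count was 4712 to 4931 in control vehicle and 2403 to 2569 with Brg1 siRNA. In LPS it was 7150 to 8688 against 5502 to 7052, and in Dex+LPS 5482 to 6602 against 3489 to 4221. Between treatments the summed count does not follow most of these markers. With LPS in control cells 7 of the 8 were called lower and 1 higher, with a median of -1.92. Of 6 B cell markers, 4 had a row and 2 were tested, of which 1 was called lower in each treatment. The B cell sum was 629.8 to 703.1 in control vehicle and 53.2 to 70.8 with Brg1 siRNA, and at most 148.5 in LPS and Dex+LPS. Of the 8 macrophage markers 4, 5 and 5 were called higher and 1, 1 and 2 lower. Reads from mitochondrial transcripts made up 1.94% to 2.22% of control vehicle libraries and 1.53% to 1.69% of those with Brg1 siRNA. The groups overlapped in LPS (1.01% to 1.502% against 0.856% to 1.19%) and in Dex+LPS (1.247% to 1.89% against 0.969% to 1.44%). The part of these shifts in the ribosomal protein result was not tested.

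Of all tested genes, 10.8%, 15.8% and 15.3% were called lower with Brg1 siRNA in vehicle, LPS and Dex+LPS, and 9.39%, 17.3% and 19.0% higher, against which the following lists are set. Of 23 other TOP mRNAs (elongation and initiation factors and the like), 5, 8 and 9 fell and 0, 1 and 1 rose, with medians of -0.14, -0.20 and -0.19. Rack1, a scaffold protein on the small subunit, changed by -16.1%, -16.7% and -16.3%, with limma adjusted p-values of 0.0351, 0.0185 and 0.00863 that reached 0.177, 0.116 and 0.0674 in alternatives. Eef1a1, the elongation factor that delivers aminoacyl-tRNA, fell in vehicle (-0.28) and Dex+LPS (-0.22), with limma adjusted p-values that reached 0.0614 and 0.0732 in alternatives, and had an estimate of -0.18 in LPS. Eef2 (-0.0016, -0.33 and -0.14), Tpt1 (-0.34, 0.13 and -0.11) and Pabpc1 (-0.19, -0.04 and 0.01) were not called by limma in any treatment. Of 33 tested ribosome biogenesis genes, 10 fell in vehicle, 27 in LPS and 20 in Dex+LPS, 0 rose, and the medians were -0.22, -0.68 and -0.37. The nucleolar proteins Npm1 (-0.27, -0.57 and -0.35) fell in each treatment, though in vehicle with an adjusted p of 0.0444 that reached 0.119 in alternatives, and Fbl, the rRNA methyltransferase, fell in LPS (-0.76) and Dex+LPS (-0.58). Of 76 mitochondrial ribosomal proteins, 1, 10 and 12 fell and 1, 2 and 1 rose, with medians of -0.04, -0.07 and -0.10. Of 22 regulators of ribosomal protein genes and mRNAs, 2, 4 and 3 rose and 3, 5 and 6 fell. Myc, a transcription factor that drives ribosome production, changed by -73.5%, -51.9% and -48.9% (limma adjusted p 2.03e-08, 1.05e-05 and 4.65e-06), and Larp1 rose in LPS (0.21, with an adjusted p of 0.0248 that reached 0.472 in alternatives) and Dex+LPS (0.58). Of the ribosomal protein genes that the naming rule misses, Rps3a1 fell in Dex+LPS (-0.23, limma adjusted p = 0.0345, up to 0.127 in alternatives), and Fau was not called.

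The LPS response depended on the scale on which it was read. With the authors' scaling, 38 of 81 members rose in control cells (46.9%, against 36.0% of all genes called higher) and 1 fell (37.0%), with a median of 0.30. With Brg1 siRNA 28 rose (34.6%, against 35.4%) and 1 fell (37.4%), with a median of 0.25. Scaled to plain library totals instead, 0 rose and 39 and 48 fell, with medians of -0.28 and -0.43, because the median of all genes moved to -0.61 and -0.72. The distance between members and all genes was 0.34 and 0.30 log2 units with the authors' scaling and 0.33 and 0.29 with plain totals. Rescaling moves all genes of a library alike, so this distance could hardly change. On the authors' scale, groups did not overlap, with LPS higher, for 53 and 48 members (38.3% of all genes in each arm). The count in control cells was 24 without control vehicle replicate 2 and 22 without control LPS replicate 3.

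Rpl24, a large subunit protein at the subunit bridge, had non-overlapping groups in both arms. It stood at 4509, 3791 and 3854 in control vehicle and 6733, 6841 and 6801 in control LPS, and at 3463, 3505 and 3361 against 5799, 6040 and 6197 with Brg1 siRNA. It rose by 68.1% and 74.5% (limma adjusted p 1.3e-06 and 5.39e-07) on the authors' scale and was not called on plain totals. Rplp0 rose by 31.6% and 34.2% on the authors' scale, while on plain totals it had -0.19 in control cells, not called, and fell by 0.26 with Brg1 siRNA. Rpl36al rose by 0.30 log2 units in both arms on the authors' scale and fell on plain totals (-0.28 and -0.38), while Rpl36a had 0.04 and 0.16, not called, and fell on plain totals (-0.54 and -0.52). Rpl3 fell with LPS in Brg1 siRNA cells on both scales (-0.29 on the authors').

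The largest rises in control cells on the authors' scale were those of Rps26, an mRNA-contacting small subunit protein, at 2.00, Rpsa, the laminin receptor, at 1.32, Rps4l at 1.246, Rpl39l at 1.05 and Rps25 at 0.96. None of these 5 was called on plain totals. Rps26 stood at 388.4, 353.0 and 756.7 in control vehicle and at 1891, 1107 and 3169 in control LPS, where 3169 is the library of higher number, and its call (limma adjusted p = 0.0442) was lost without control vehicle replicate 1 or 2 or control LPS replicate 1 or 3. That of Rpsa was lost without control vehicle replicate 3 or control LPS replicate 3, and that of Rpl39l without control vehicle replicate 2 or 3 or control LPS replicate 2 or 3. With Brg1 siRNA, Rpl39l (1.02), Rps25 (0.93), Rpl24 (0.80), Rps4l (0.73) and Rpl5 (0.62) led the rises, none of them called higher on plain totals, and Rpl5 was not called in the sum with its relatives. The call of Rpl39l was lost without Brg1 vehicle replicate 1 or 3 or Brg1 LPS replicate 2, and that of Rps4l without any 1 of the 6 libraries.

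With dexamethasone added to LPS, members had medians below 0 on the authors' scale, and in control cells a smaller share of them than of all genes was called lower. In control cells 12 of 81 fell (14.8%, against 25.2% of all genes) and 1 rose (23.4%), with a median of -0.21, and with Brg1 siRNA 23 fell (28.4%, against 23.0%) and 0 rose (21.3%), with a median of -0.25. The groups did not overlap, with the dexamethasone group lower, for 5 members in control cells (6.17%, against 24.7% of all genes) and for 29 with Brg1 siRNA (35.8%, against 25%). No member was higher with Brg1 siRNA at an unadjusted p under 0.05, and edgeR and DESeq2 each called 1. On plain totals 0 fell and 17 and 7 rose, with medians of 0.09 and 0.08 beside medians of all genes of 0.28 and 0.31. The LPS libraries are the treated groups of the LPS comparison and the baseline of this one, so the 2 comparisons share them.

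Rpl15 fell with dexamethasone in control cells and with Brg1 siRNA (-0.55 and -0.57), the second call lost without Brg1 LPS replicate 2. Rpl19 fell in both arms (-0.35 and -0.38) in each alternative other than plain totals. Rpl8 and Rpl29 fell in control cells (-0.43 and -0.39), each call lost without control LPS replicate 1 or 3 or control Dex+LPS replicate 1 or 3. With Brg1 siRNA, Rpl23a fell by 0.29 on the authors' scale and had 0.05 on plain totals, and Rpl39l fell by 0.94, a call kept in 2 of 19 alternatives. The count in control cells was 34 without control Dex+LPS replicate 2, 23 without replicate 4 and 5 to 7 without control LPS replicate 1 or 3 or control Dex+LPS replicate 3. With Brg1 siRNA it was 43 without Dex+LPS replicate 4, 10 to 15 without any 1 of the 3 LPS replicates and 13 without Dex+LPS replicate 1 or 2. None of these falls was called on plain totals.

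Whether the knockdown changed the responses was tested by interaction terms. For the LPS response 1 member was called higher (6.39% of all genes were) and 0 lower (5.05%), with 1 member in each direction at an unadjusted p under 0.05. The called member was Rps27, whose row was listed at 0 in 3 of the 4 groups concerned, and its sum with relatives was not called. edgeR called 0 in either direction and DESeq2 1 in each. For the dexamethasone response limma called 0 higher (2.75%) and 0 lower (1.22%), with 0 and 1 at an unadjusted p under 0.05 and 0 by edgeR and DESeq2. Among ribosome biogenesis genes the LPS term was called lower for 12 of 33 and higher for 0.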

How the data were processed

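RNA-seq of 20 libraries in 6 groups was analysed from 1 table. Its normalized values (signal) are gene counts that the authors divided by 1 size factor per library, per the file headers. The submitters' processing notes name Salmon 1.4.0, DESeq2, R 4.1.0 and the builds mm10 and GRCm38.p6. The deposited table also gives the authors' log2 fold changes and p-values (adjusted included), used only where named. Low values showed whole reads: 99.95% of values above 0 came within 0.01 of a whole read, which gave depths of 13694895 to 18707709 reads. Since Salmon estimates counts, these may be rounded estimates, and how reads shared by related rows were divided among them is not given in the sources used here.

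From the normalized values, limma 3.58.1 (R 4.3.3) fitted log2(value + 1) for the 6 groups together with a mean-variance trend, for 12061 genes with at least 10 in at least 3 libraries. Fold changes are on that scale and understate changes of low genes. P-values were Benjamini-Hochberg adjusted over all genes, with a threshold of 0.05, in 9 comparisons. The test was checked on simulated counts for the knockdown in vehicle and in Dex+LPS. It recovered 98% to 100% of genes changed 0.5-fold or 2-fold. In vehicle it recovered 6% at 0.8-fold and 0% at 1.25-fold, and in Dex+LPS 18% and 22%. Changes of 0.8-fold and 1.25-fold were thus mostly missed in the simulation, which changed only 50 genes at each fold. In the data many more genes were called (in vehicle 1132 higher and 1298 lower), which loosens the adjusted threshold. The share recovered in the data can therefore differ and was not measured. A member that was not called may have changed. Alternatives were edgeR 4.0.16 and DESeq2 1.42.0 on the recovered reads, another pseudocount, no filter, plain library totals, fewer groups, libraries left out, a replicate block and the label number range as a covariate. Length correction, summing of sequence relatives (rows sharing at least 20% of 31-base words), removal of the 2 libraries high in short transcripts and the ratio test were added after seeing the data.

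The members and gene lists were chosen with earlier results of these data known. Named genes are, per comparison, the 5 largest called rises and falls and a fixed set of stalk, paralogue and well-studied members. Promoter sequences are from RefSeq (GRCm38.p6). Rpl10l was not analysed here, and a few genes are not reported here by name.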

Additional observations from a re-analysis of the deposited data

Results flagged for a closer look

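In 84 groups of 4 Dex+LPS libraries examined, 16 had 1 library far above the other 3 by Dixon's test, and chance alone flags some groups in such a check. In control Dex+LPS, replicate 2 was the high library for Rpl11 (5524 normalized counts), Rpl23a (7098), Rpl24 (7778), Rpl32 (6396), Rpl36al (2188), Rpl4 (15474) and Rps27l (1196). This library is 1 of the 2 in which short transcripts stood high. In the same group, replicate 4 was the high library for Rps26 (2255) and Rpsa (524.9). In Brg1 siRNA Dex+LPS, replicate 4 was the high library for Rpl10 (2795), Rpl10a (809.8), Rplp1 (4953), Rplp2 (2241), Rps26 (2059) and Rps6 (5053). Both replicates 4 carry the higher label numbers. Rps27 was listed at 120.7 in Brg1 siRNA Dex+LPS replicate 3 and at 0 in the other 3.

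The LPS response of Rps27 differed between the siRNA arms by an interaction term of 5.49 log2 units (limma adjusted p = 0.0484), a value set by the pseudocount because 3 of the 4 groups were listed at 0.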

How the results depend on the processing

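No knockdown count of members changed direction in any alternative run. With only the compared groups in the fit, 44, 35 and 22 members fell in vehicle, LPS and Dex+LPS. The LPS count was 47 with plain totals (median -0.43), 38 with the label number range as a covariate, 45 with the length trend removed and 36 without the 2 libraries high in short transcripts. The last 2 settings called 1 member higher in vehicle. Leaving out 1 library gave 11 to 19, 13 to 23 and 33 to 52 lower.

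Plain totals turned the LPS and dexamethasone responses: 0 members rose and 39 (control) and 48 (Brg1 siRNA) fell with LPS (medians -0.28 and -0.43), and 17 and 7 rose and 0 fell with dexamethasone (medians 0.092 and 0.081). Single genes that turned were Rplp0 (-0.19 and -0.26), Rpl36a (-0.54 and -0.52), Rpl36al (-0.28 and -0.38) and Rpl5 (-0.056) for LPS and Rpl23a (0.046) for dexamethasone. For LPS in control cells, members lower numbered 2 with edgeR, 3 with only the compared groups, 0 summed with relatives and 2 with the length trend removed. With Brg1 siRNA, 17 rose with edgeR and 48 with only the compared groups, and 2 fell with no filter, only the compared groups or the length trend removed. Leaving out 1 library gave 22 to 39 and 19 to 22 higher.

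For dexamethasone in control cells, 6 fell with edgeR, 28 with the covariate, 24 without the 4 libraries of higher number, 4 with only the compared groups, 32 with the length trend removed and 37 without the 2 libraries, and 0 rose summed with relatives. With Brg1 siRNA, 10 fell with edgeR, 42 with the covariate and 35 without the 2 libraries, and 1 rose with edgeR, DESeq2 or the length trend removed. Leaving out 1 library gave 5 to 34 and 10 to 43 lower.

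The LPS interaction had 0 members higher with no filter, edgeR, relatives summed or without the 2 libraries and 3 with the covariate. It had 1 lower with DESeq2, only the compared groups or without the 2 libraries, and 2 with the covariate, without the 4 libraries or with the length trend removed. Its median ranged from -0.13 to 0.0097 without 1 library (positive without control vehicle replicate 2), and that of the dexamethasone interaction from -0.10 to 0.031. Leaving out 1 library gave 0 to 0 higher for it and 0 to 1 lower for the dexamethasone interaction, whose median was 0.039 with the length trend removed and 0.031 without control Dex+LPS replicate 2 or the 2 libraries. The cause of these shifts was not tested.

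Replicate numbers did not pair the libraries: correlations of same-numbered deviations ranged from -0.17 to 0.41, and in 0 of 7 comparisons was every pair over 0.1. The value of 0.41 was that of replicate 4 in the Dex+LPS knockdown, where both libraries carry the higher label numbers. All other values were at most 0.079. With the replicate block, 24, 28 and 44 members fell in the knockdown comparisons, 3 fell with LPS in control cells, and 32 and 39 fell with dexamethasone.

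Of the values of single genes in alternatives, 2186 kept direction and side of the threshold, 184 lost the call, 63 gained it and 8 turned.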
